A study of Tetranychus urticae with 24 samples.

Results

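*CYP392E8* (tetur27g00350), *CYP392E6* (tetur27g00330) and *CYP392B3* (tetur20g00290) code for cytochrome P450 monooxygenases of the CYP392 family, and they are 3 of the 19087 genes in the count table of the spider mite *Tetranychus urticae*. The 3 genes were chosen by their fold change (FC) in these same libraries: the study's list for PBO held *CYP392E8* and *CYP392E6*, and its list for DEM held *CYP392B3*. Values of *CYP392E8* and *CYP392E6* that involve PBO, and values of *CYP392B3* that involve DEM, are therefore given below as a description and were not tested.

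RNA-seq libraries were made from female adults of the JP-R strain, with 4 biological replicates per group and about 100 mites per RNA extraction. The strain is kept in the laboratory under cyenopyrafen selection and withstands this acaricide as well as cyflumetofen. In the week before RNA was collected, this selection was lifted. Mites were left unsprayed (CON), sprayed with formulation only (FORM, N,N-dimethylformamide and emulsifier W in water), or sprayed with PBO at 1000 ppm, DEF at 500 ppm, DEM at 2000 ppm or CsA at 50 ppm in that formulation, and living mites were collected after 24 h. PBO (piperonyl butoxide) inhibits P450s, DEF (S,S,S-tributyl phosphorotrithioate) inhibits carboxyl esterases, and DEM (diethyl maleate) depletes glutathione. CsA (cyclosporin A) inhibits ABC transporters of vertebrates, and per the study this action is less well known in arthropods. All groups belong to this single strain and to whole mites, so fewer cells of a type and less RNA per cell cannot be told apart.

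P450s are heme enzymes that use molecular oxygen to oxidize their substrates, which makes lipophilic compounds easier to modify further and excrete. In arthropods they take part in the breakdown of pesticides and plant toxins as well as in the synthesis of hormones. CYP392 is a family of the CYP2 clan that is expanded in *T. urticae*, and enzymes of its A and E subfamilies are known to metabolize acaricides, such as CYP392A11 with cyenopyrafen and CYP392A16 with abamectin. The substrates of CYP392E8, CYP392E6 and CYP392B3 are not given in the sources used here.

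The libraries held 13824851 to 18198286 counts. Across all 24 libraries *CYP392E8* had 21593 to 59510 counts, *CYP392E6* 1791 to 4867 and *CYP392B3* 297 to 709, so counting error was small for the first gene and largest for the last. Vitellogenin (tetur20g01230), the yolk precursor made by egg-laying females, was detected in every library with 1215 to 3910 counts. It was not constant between groups: by edgeR's quasi-likelihood test against FORM it rose with PBO (FC 1.51, adjusted p = 0.0278) and with DEF (FC 2.13, adjusted p = 1.63e-04). A vitellogenin fused with superoxide dismutase (tetur07g05480) rose with DEF too (FC 1.59, adjusted p = 0.00452). Both genes were taken from the annotations in the study's tables of these same libraries, so their p-values are not independent evidence. What part the vitellogenin differences had in the P450 levels below was not tested. Levels are CPM, counts relative to the TMM-scaled size of the library. A difference passed the test at a Benjamini-Hochberg adjusted p under 0.05 over all 12736 genes tested.

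*CYP392E8* was highest with PBO, next with DEF, and lowest with DEM. With formulation its CPM were 2061, 2129, 2051 and 2162.5 in replicates 1 to 4, and with PBO they were 3527, 3582, 3557 and 3774. With DEF they were 3051, 2765, 2570.4 and 2729, above every FORM library and below every PBO library. Mites treated with DEM had 1624, 1422, 1540.4 and 1579 CPM, and mites treated with CsA 1685, 1503, 1895 and 1805 CPM, all below every FORM library. Unsprayed mites spread more widely, with 1877, 1616, 1420.0 and 1974 CPM, and also lay below every FORM library. The group means were 3610.1 ± 112 with PBO, 2779 ± 200.0 with DEF, 2101 ± 54.0 with formulation, 1722 ± 169 with CsA, 1722 ± 252 in unsprayed mites and 1541.5 ± 86.6 with DEM (SD, n = 4).

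*CYP392E6* followed the same order at the top. Its CPM in replicates 1 to 4 were 182, 174, 180.4 and 188 with formulation and 296, 297, 303 and 300.0 with PBO. With DEF they were 261, 233, 223 and 212, again between the FORM and the PBO libraries without overlap with either. With DEM they were 143, 129, 141 and 140.0, with CsA 143, 135, 146 and 160.0, and in unsprayed mites 160.3, 123, 109.7 and 171. The means were 299 ± 3.21 with PBO, 232 ± 20.8 with DEF, 181 ± 5.59 with formulation, 146 ± 10.4 with CsA, 141 ± 29.2 in unsprayed mites and 138 ± 6.50 CPM with DEM (SD, n = 4).

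*CYP392B3* had another pattern, in which the DEM libraries were lowest and the means with CsA and PBO highest. With DEM its CPM were 23.4, 19.6, 18.4 and 21.1, below each of the other 20 libraries. With formulation they were 29.6, 34.3, 42.2 and 34.2, and replicate 3 lay above the rest of that group. They were 31.3, 31.0, 26.5 and 32.4 in unsprayed mites, 41.1, 37.4, 44.1 and 41.4 with PBO, 32.4, 38.9, 37.9 and 36.0 with DEF, and 39.0, 41.0, 44.0 and 42.7 with CsA. Every CsA and PBO library lay above every CON library, and both groups overlapped with FORM. The means were 41.7 ± 2.16 with CsA, 41.0 ± 2.78 with PBO, 36.3 ± 2.87 with DEF, 35.0 ± 5.21 with formulation, 30.3 ± 2.59 in unsprayed mites and 20.6 ± 2.15 with DEM (SD, n = 4).

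**Figure D1:**
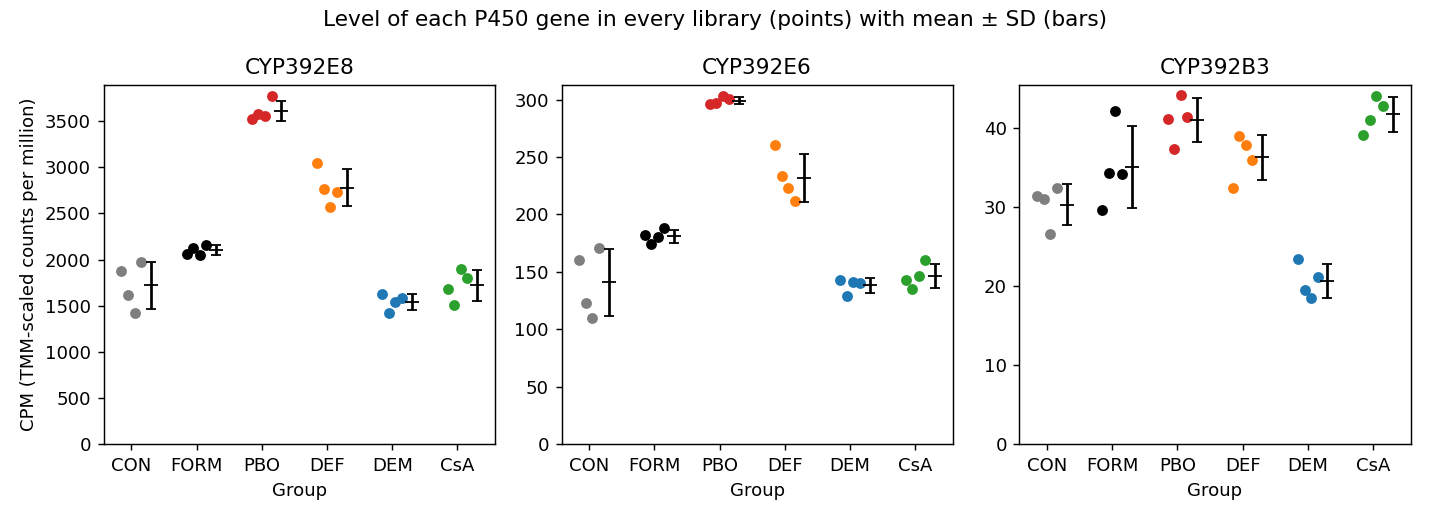
CPM (y axis, linear from 0) of the 3 P450 genes in each of the 24 libraries by group (x axis); points are libraries in the order of replicates 1 to 4 and bars are mean ± SD (n = 4). For *CYP392E8* and *CYP392E6* the PBO libraries lie highest and the DEF libraries between PBO and FORM, while for *CYP392B3* the DEM libraries lie below all others.

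The comparisons that chose the genes had these sizes. With PBO against FORM, *CYP392E8* had a log2 FC of 0.78 (SE 0.0882, FC 1.72) and *CYP392E6* of 0.72 (SE 0.0945, FC 1.65), in a comparison in which 8.93% of all genes tested passed the adjusted p. With DEM against FORM, *CYP392B3* had a log2 FC of −0.76 (SE 0.0949), a FC of −1.70. The study set its lists at a FC of 1.5, a log2 FC of 0.58. The other P450 genes nearest to that value in the counts were, with PBO, *CYP385C3* (FC 1.58) above and *CYP385C4v2* (FC 1.49) below it, and with DEM *CYP392D2* (log2 FC −0.60) beyond and *CYP385C4* (log2 FC −0.56) short of it.

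Both CYP392E genes were higher with DEF than with formulation. The DEF libraries took no part in the choice of the genes, but the FORM libraries did. Values against FORM, here and below, are therefore not independent of that choice. Against FORM, *CYP392E8* rose by a log2 FC of 0.40 (SE 0.0878, 95% interval 0.22 to 0.58, adjusted p = 0.00468) and *CYP392E6* by 0.36 (SE 0.0944, 95% interval 0.16 to 0.55, adjusted p = 0.0183). Of all genes tested, 8.92% passed this comparison. Both FC, 1.32 and 1.28, were under 1.5. Without replicate 1 of DEF, the highest of its group for both genes, *CYP392E6* no longer passed (adjusted p = 0.0846). Both genes were also higher with DEF than in unsprayed mites, whose libraries took no part in the choice of the genes. Here *CYP392E8* had a FC of 1.61 (adjusted p = 1.39e-05) and *CYP392E6* of 1.65 (adjusted p = 2.10e-05), where 14% of all genes passed. Comparisons of synergists with unsprayed mites, here and below, also include the formulation spray. FORM itself lay above CON by a FC of 1.22 for *CYP392E8* and 1.28 for *CYP392E6*, which did not pass.

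With DEM both CYP392E genes were lower than with formulation. The log2 FC was −0.45 for *CYP392E8* (SE 0.0879, 95% interval −0.63 to −0.27, adjusted p = 0.00653) and −0.39 for *CYP392E6* (SE 0.0949, 95% interval −0.59 to −0.19, adjusted p = 0.0156), and 11.1% of all genes passed. Neither reached a FC of 1.5, and without replicate 3 of FORM *CYP392E6* had an adjusted p of 0.0542. Against unsprayed mites neither gene passed: the log2 FC with DEM was −0.16 (95% interval −0.34 to 0.02, adjusted p = 0.223) for *CYP392E8* and −0.03 (95% interval −0.22 to 0.17, adjusted p = 0.871) for *CYP392E6*, where 12.5% of all genes passed. The lower level with DEM was thus seen relative to the formulation control and was not detected relative to unsprayed mites.

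The CsA treatment gave log2 FC of −0.29 for *CYP392E8* (95% interval −0.47 to −0.11, adjusted p = 0.0614) and −0.31 for *CYP392E6* (95% interval −0.51 to −0.11, adjusted p = 0.0620) against FORM, just short of the threshold, where 3.64% of all genes passed. All 4 CsA libraries lay below all 4 FORM libraries for both genes. How many of all genes tested were separated in this way was not counted, here or between other groups. The separation is therefore a description only. Without replicate 4 of CsA both passed (adjusted p = 0.0293 and 0.0211). Against unsprayed mites the log2 FC was 0.00 for *CYP392E8* (95% interval −0.18 to 0.18) and 0.05 for *CYP392E6* (95% interval −0.14 to 0.25), with adjusted p = 0.999 and 0.745, while 10.3% of all genes passed.

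*CYP392B3* did not pass against FORM with any of the other synergists. Its log2 FC was 0.23 with PBO (95% interval 0.04 to 0.42, adjusted p = 0.122), 0.05 with DEF (95% interval −0.14 to 0.24, adjusted p = 0.784) and 0.25 with CsA (95% interval 0.06 to 0.44, adjusted p = 0.0986). Without replicate 3 of FORM, the highest of that group, the PBO comparison passed with a log2 FC of 0.33 (adjusted p = 0.0322). Against unsprayed mites *CYP392B3* rose with PBO (FC 1.35, adjusted p = 0.00213) and with CsA (FC 1.38, adjusted p = 0.00469), and had a FC of 1.20 with DEF that did not pass (adjusted p = 0.0635). In the comparisons with unsprayed mites 18.5% of all genes passed with PBO, 10.3% with CsA and 14% with DEF, so many genes differed there. These comparisons include the formulation spray, and FORM lay above CON by a FC of 1.16 for *CYP392B3*, which did not pass.

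**Figure D2:**
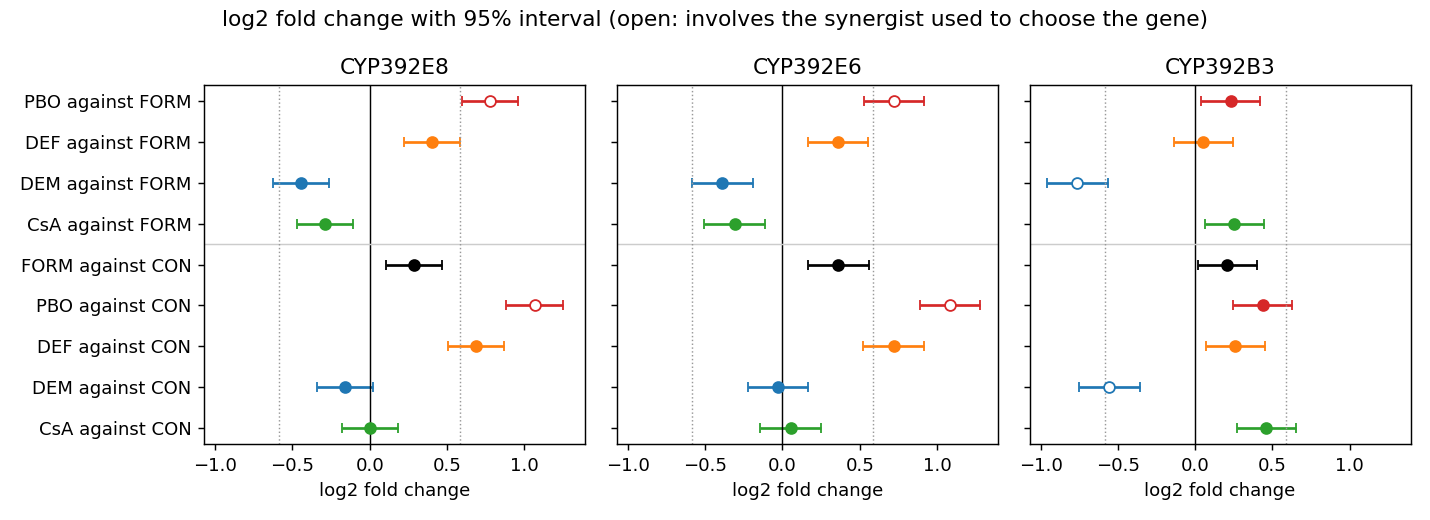
log2 FC (x axis) of each P450 gene in 9 comparisons (y axis), with 95% intervals from edgeR's quasi-likelihood fit; open points involve the synergist whose list held the gene, and dotted lines mark a FC of 1.5. The DEM and CsA intervals of *CYP392E8* and *CYP392E6* lie below 0 against FORM and include 0 against CON.

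The formulation itself had no effect that passed on any of the 3 genes, in a comparison in which 0.0314% of all genes passed. FORM was nevertheless above CON for each, by a FC of 1.22 for *CYP392E8* (adjusted p = 0.480, unadjusted p = 0.00327), 1.28 for *CYP392E6* (adjusted p = 0.353, unadjusted p = 8.60e-04) and 1.16 for *CYP392B3* (adjusted p = 0.891, unadjusted p = 0.0343). The CYP392E genes were more variable in unsprayed mites than in the other groups: the coefficient of variation was 14.6% for *CYP392E8* and 20.7% for *CYP392E6* in CON, against 2.57% and 3.09% in FORM. Replicate 3 of CON had the lowest CPM of its group for all 3 genes.

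The synergists were also compared directly. For *CYP392E8*, DEF lay above DEM by a FC of 1.80 (adjusted p = 5.27e-07) and above CsA by a FC of 1.61 (adjusted p = 7.35e-06). For *CYP392E6* the FC were 1.68 (adjusted p = 6.90e-06) and 1.59 (adjusted p = 3.17e-05). These comparisons were broad, as 25.7% of all genes passed between DEF and DEM and 20.1% between DEF and CsA. DEM and CsA did not differ detectably: the log2 FC was −0.16 (95% interval −0.34 to 0.02) for *CYP392E8* and −0.08 (95% interval −0.28 to 0.12) for *CYP392E6*, and 0.762% of all genes passed. As a description, PBO lay above DEF by a FC of 1.30 for *CYP392E8* and 1.29 for *CYP392E6*, with no overlap of the libraries.

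*CYP392B3* passed in none of the 3 direct comparisons that did not involve DEM. The log2 FC was 0.18 for PBO against DEF (95% interval −0.01 to 0.37, adjusted p = 0.360), −0.02 for PBO against CsA (95% interval −0.21 to 0.17, adjusted p = 0.867) and −0.20 for DEF against CsA (95% interval −0.39 to −0.01, adjusted p = 0.124). Of all genes, 1.48% passed between PBO and DEF and 32.1% between PBO and CsA. As a description, DEM lay below the other synergists for *CYP392B3* with no overlap of the libraries: the FC of DEM relative to CsA was −2.02, that of PBO relative to DEM 1.99 and that of DEF relative to DEM 1.76.

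The ratio of *CYP392E8* to *CYP392E6* counts was similar in size in all groups. Per count of *CYP392E6* there were 11.6 ± 0.419 counts of *CYP392E8* in FORM, 12.3 ± 0.818 in CON, 12.1 ± 0.364 with PBO, 12.0 ± 0.603 with DEF, 11.1 ± 0.215 with DEM and 11.8 ± 0.821 with CsA (SD, n = 4). This ratio is not corrected for transcript length and serves only to compare libraries, over which it ran from 10.9 to 13.1. On the log2 scale it differed from FORM by 0.05 with DEF, −0.06 with DEM and 0.02 with CsA, and FORM differed from CON by −0.09 (two-sided exact permutation tests, p = 0.343, 0.0857, 0.743 and 0.171, adjusted p = 0.457, 0.343, 0.743 and 0.343 over 4 tests). Since 4 libraries against 4 allow no p below 0.0286, a single changed ratio could not have passed after adjustment, and these tests do not show that the ratio stayed the same. After the group means were removed, the log2 CPM of both genes were correlated over the 24 libraries (Pearson r = 0.878, Spearman rho = 0.815, permutation test p = 1e-05 for both, the smallest that 100000 permutations can give, adjusted p = 3e-05 over 3 pairs). These permutations, here and below, shuffled libraries across groups of unequal spread, so their p-values are approximate. Without the 2 libraries farthest from the median of *CYP392E8*, r was 0.774, and without the CON libraries it was 0.738 (permutation test, adjusted p = 9.00e-04). The groups differed in this respect: over their 4 libraries, too few for a test, r was 0.990 in CON, 0.947 with DEM, 0.830 with DEF and 0.735 with CsA, but 0.238 with PBO and 0.219 in FORM. Reads shared between near-identical stretches could not be checked, since the sequences of the genes were not analysed here.

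Over the 24 libraries no such relation was detected for *CYP392B3*. Its deviations had r = 0.288 and rho = 0.283 with those of *CYP392E8* (permutation test p = 0.172 and 0.180, adjusted p = 0.223 and 0.191) and r = 0.259 and rho = 0.276 with those of *CYP392E6* (permutation test p = 0.223 and 0.191, adjusted p = 0.223 and 0.191). Without the 2 libraries farthest from the median these r were 0.0703 and −0.00717. The groups differed here too, over 4 libraries each, too few for a test. The r with *CYP392E8* ran from 0.909 in CON to −0.819 with DEF. That with *CYP392E6* ran from 0.842 in CON to −0.642 with DEF.

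**Figure D3:**
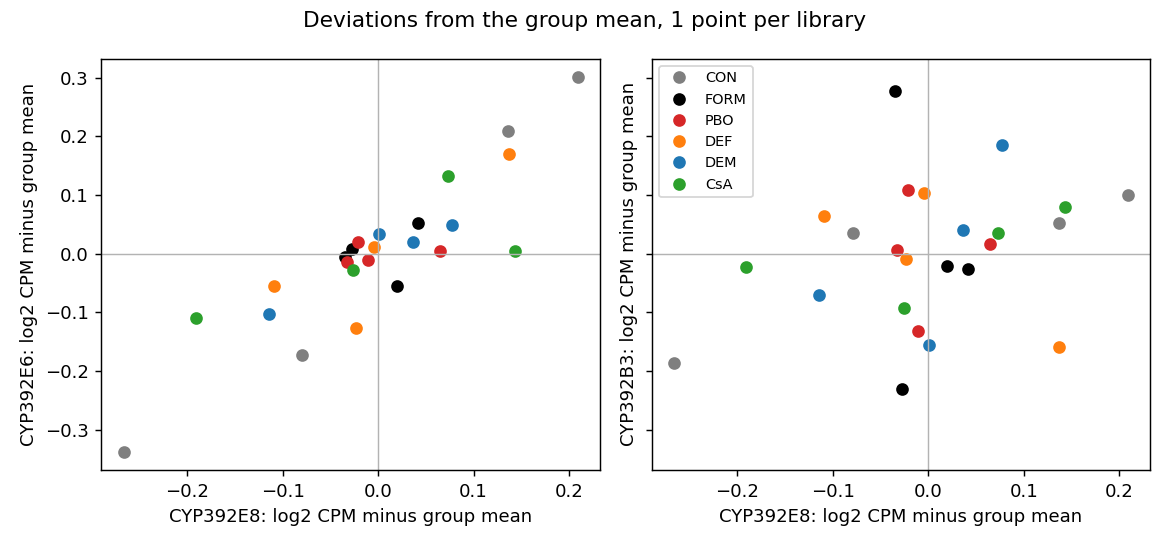
Deviation of log2 CPM from the group mean, 1 point per library (24 in all), for *CYP392E6* (left, y axis) and *CYP392B3* (right, y axis) against *CYP392E8* (x axis), coloured by group. The left panel shows a common rise (r = 0.878), with the CON libraries at both ends, and the right panel a weak one (r = 0.288).

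Both CYP392E genes are on scaffold 27 by their IDs, with tetur27g00340 as the only ID between them. That gene had 10431 counts in all and did not pass against FORM with any synergist. Its log2 FC against FORM was 0.06 with PBO, −0.21 with DEF, −0.09 with DEM and −0.10 with CsA. Against unsprayed mites it passed with PBO (log2 FC 0.44, adjusted p = 0.0212) and with no other synergist. There were 21 IDs besides the CYP392E genes from tetur27g00230 to tetur27g00450, and 12 of them, tetur27g00340 included, had enough counts to be tested. Against FORM none of these 12 passed with PBO, DEF or CsA, and with DEM only tetur27g00230 rose (log2 FC 0.78, adjusted p = 0.0472). Their median log2 FC relative to FORM were 0.02 with PBO and −0.05 with DEM, and 0.00 for all genes tested in both comparisons. Against unsprayed mites 2 of the 12 rose with PBO, tetur27g00340 included, 1 rose with DEF, 1 fell with DEM and 0 passed with CsA. Of all genes tested, 18.5%, 14%, 12.5% and 10.3% passed in these comparisons.

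Among the neighbours of *CYP392B3* in number, 1 rose and 1 fell with DEM against FORM. The ID just before it, tetur20g00280, rose with DEM (log2 FC 0.46, adjusted p = 0.0254), and the ID just after it, tetur20g00300, had a log2 FC of −0.08 (adjusted p = 0.468). Of the 14 tested among 19 other IDs from tetur20g00190 to tetur20g00390, tetur20g00360 fell with DEM (log2 FC −0.34, adjusted p = 0.0235), and no gene other than these passed with DEM. Against FORM tetur20g00200 rose with PBO (log2 FC 1.33, adjusted p = 0.0491), and none passed with DEF or CsA. Against unsprayed mites 1 of the 14 rose and 1 fell with PBO, and 1 rose and 1 fell with DEM. In that comparison none passed with DEF, and 1 fell with CsA. Gene numbers stand in for position here, and these neighbours carry no name in the sources used.

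**Figure D4:**
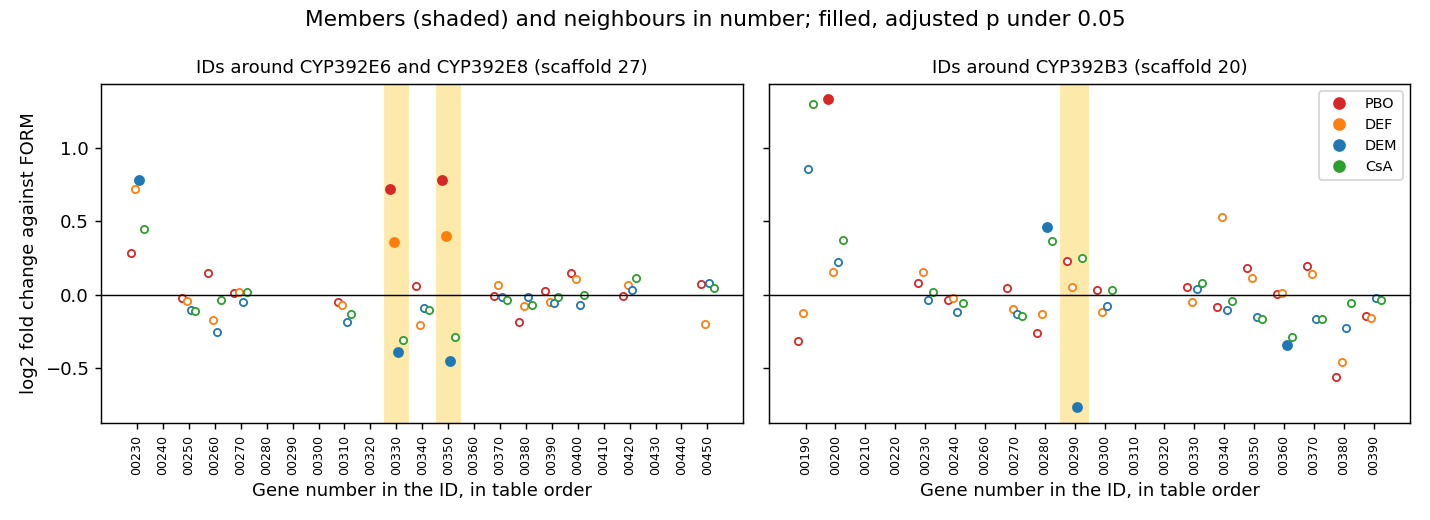
log2 FC against FORM (y axis) of the genes with IDs around the CYP392E genes (left) and *CYP392B3* (right), in table order (x axis), coloured by synergist; filled points have an adjusted p under 0.05, and IDs without points had too few counts. Shaded columns mark *CYP392E6*, *CYP392E8* and *CYP392B3*; the gene between the CYP392E genes lies between −0.21 and 0.06.

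The study's lists for the 4 synergists held 16 other P450 genes, all of which had enough counts. Of these, tetur03g00800, tetur03g05020, tetur03g05060 and tetur21g00560 are described as probable pseudogenes, tetur03g05040 as a fragment and tetur03g09941 only by a conserved site. The 16 were listed because they differed in these libraries, so their directions are not independent evidence. With PBO 11 rose and 0 fell, and with DEF 13 rose and 1 fell. With DEM 1 rose, the probable pseudogene tetur21g00560, and 9 fell, and with CsA 3 rose and 0 fell. Of all genes tested, 8.93%, 8.92%, 11.1% and 3.64% passed in these comparisons. The median log2 FC of the 16 were 0.84, 0.79, −0.52 and −0.11, while those of all genes tested were at most 0.01. Like the CYP392E genes, 7 of the 16 rose with DEF and fell with DEM, among them *CYP392A11* (tetur03g00970), *CYP392A12* (tetur03g00830), *CYP392D2* (tetur03g04990), *CYP392D6* (tetur03g05030) and *CYP392A16* (tetur06g04520). All these comparisons share the FORM libraries, and how many of all genes tested rose with DEF and fell with DEM was not counted.

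The size of the DEF response set the CYP392E genes apart from part of this group. The log2 FC with DEF, 0.40 and 0.36 for *CYP392E8* and *CYP392E6*, lay close to that of *CYP392A16* (0.39), while *CYP392A11* and *CYP392A12* had 1.77 and 1.20. These differences between genes were not tested. With CsA the P450 genes that rose were *CYP385C4* (tetur11g05520), *CYP385C3* (tetur11g05540) and *CYP385C3v2* (tetur46g00170), with log2 FC of 1.12, 1.04 and 0.98. A level above FORM with CsA and below it with DEM, as in *CYP392B3*, was found in 6 of the 16, whatever the adjusted p. These were all 4 *CYP385C* genes, the fragment tetur03g05040 and the probable pseudogene tetur03g05060. The share of all genes tested with these signs was not counted, so the number is a description only. *CYP392A3* (tetur07g06460) also fell with DEM (log2 FC −1.57) but fell with DEF too (log2 FC −1.14).

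**Figure D5:**
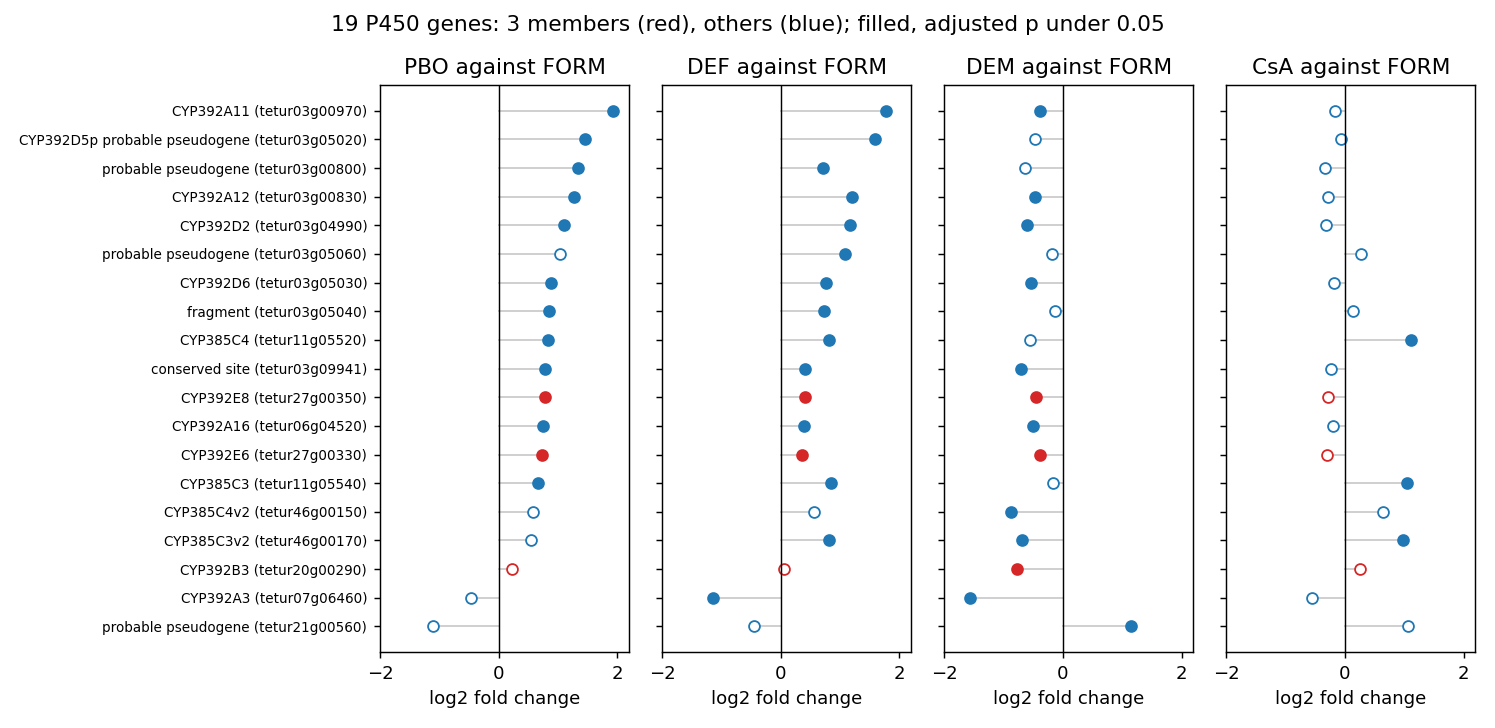
log2 FC against FORM (x axis) with PBO, DEF, DEM and CsA of the 19 P450 genes in the study's lists (y axis, ordered by the value with PBO); *CYP392E8*, *CYP392E6* and *CYP392B3* are red, the other 16 blue, and filled points have an adjusted p under 0.05. With DEM most genes lie below 0, and *CYP385C4* has the highest value with CsA at 1.12.

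Over all 24 libraries, the gene whose log2 CPM was most like that of *CYP392E8* among 12735 others was *CYP392E6* (Pearson r = 0.986). It was followed by *CYP392A16* (r = 0.981), tetur13g04550, which codes for an intradiol ring-cleavage dioxygenase, an enzyme that cleaves the ring of catechols (r = 0.958), *CYP392A12* (r = 0.955) and *CYP392D6* (r = 0.953). For *CYP392E6* the next after *CYP392E8* were *CYP392A16* (r = 0.973), *CYP392D6* (r = 0.954), tetur06g04530 (r = 0.937) and *CYP392A12* (r = 0.932). The likeness was lower for *CYP392B3*, with tetur06g03090 (r = 0.865), tetur11g05100 (r = 0.831), *CYP385C3v2* (r = 0.811), tetur09g04630 (r = 0.808) and *CYP385C4v2* (r = 0.805). These r describe the pattern and carry the differences between groups that chose the genes. As a description, tetur06g03090 had a FC of −2.14 with DEM and 1.58 with PBO against FORM, and tetur11g05100 of −1.44 and 1.58. Both genes were picked for their likeness to *CYP392B3* in these libraries, so these FC are not independent of that choice.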

How the data were processed

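RNA was sequenced on an Illumina HiSeq after polyA selection, paired-end and strand-specifically. Per the study's methods and the submitters' notes, read quality was verified in FastQC 0.11.4, alignment used STAR 2.5.0a, sorting used SAMtools 0.1.19, and HTSeq 0.6.0 gave the authors' raw counts per gene over exons, with its strand option set to take the first read as sense. The TruSeq Stranded kit makes the first read antisense, and which strand the counts come from could not be checked here. By default HTSeq drops reads that map to several places. The deposited counts cover 19087 genes in 24 libraries.

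These counts were tested with edgeR 4.0.16 (R 4.3.3). filterByExpr kept 12736 genes, TMM scaled the libraries, and the quasi-likelihood fit covered all libraries together, with a mean for each group. P-values were adjusted by Benjamini-Hochberg over all genes within each comparison. A difference passed at an adjusted p under 0.05; the study also asked for a FC of at least 1.5, which is given as an alternative. DESeq2 1.42.0 and limma 3.58.1 served as alternatives. Log2 CPM used a prior count of 2, and ratios of counts a pseudocount of 0.5. The replicates are described as biological; all FORM comparisons share the same 4 libraries. The fit was tested on simulated data.

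The members and lists were chosen with earlier results of these data known. Named genes are the members, the 5 genes most like each by Pearson r, and genes of the P450 list or with neighbouring numbers that passed against FORM or lay nearest to a FC of 1.5. The gene tetur27g00340, tetur20g00300 and *CYP392A3* with its values were named after they were seen. The reference table of gene names is of another assembly and pairs with no ID here, so no sequences, lengths or positions are given.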

Additional observations from a re-analysis of the deposited data

How the results depend on the processing

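The share of all genes that passed differed between the comparisons, from 0.0314% for FORM against CON to 32.1% for PBO against CsA. Of the 30 comparisons tested on the 3 genes, which share libraries and are not independent, 12 passed. Of these, 6 also reached a FC of 1.5. Under the study's threshold with that FC, DEF and DEM against FORM no longer passed for *CYP392E8* (log2 FC 0.40 and −0.45) and *CYP392E6* (0.36 and −0.39), nor did PBO and CsA against CON for *CYP392B3* (0.44 and 0.46). CsA against FORM was the least settled. For *CYP392E8* it passed with DESeq2 without shrinkage (log2 FC −0.28, adjusted p = 0.0221) and with a normal prior (−0.27, adjusted p = 0.0229). For *CYP392E6* it passed with both (−0.30 and −0.28) and with only the groups compared (−0.32, adjusted p = 0.0137). With the replicate number as a block it passed for both genes, at −0.29 (adjusted p = 0.0344) and −0.31 (adjusted p = 0.0350), and the block changed no other call. The numbers were not taken to pair the libraries, since 22 of 60 same-numbered pairs and not all had a correlation of their deviations over 0.1. The median correlation was 0.05 for the same number and −0.02 for other numbers, and 23 of 60 correlated best with their own number. Limma-voom, DESeq2 size factors, upper quartile scaling, no filter and at least 10 counts in every library changed no call. No scaling turned a direction that passed.

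With 1 library left out in turn, CsA against FORM ran from −0.34 to −0.23 for *CYP392E8* and from −0.36 to −0.27 for *CYP392E6*. The log2 FC of *CYP392E6* against FORM ran from 0.30 to 0.39 with DEF and from −0.42 to −0.36 with DEM, and that of *CYP392B3* with PBO from 0.14 to 0.33. Calls of the other tested comparisons held without each library. *CYP392B3* had the fewest counts, at least 297 per library.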
